A study of Mus musculus with 4 samples.

Results

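Transcripts of 10 genes that sense DNA double-strand breaks and carry the signal to 53BP1 were compared in hybridoma subclones that switch antibody class at different frequencies. The genes were Nbn, Rad50, Atm, H2ax, Mdc1, Rnf8, Rnf168, Trp53bp1, Rif1 and Mad2l2, taken by the gene symbol that the array annotation gives, and 21 of the 45037 probe sets tested measure them. All subclones come from 36-65, a mouse hybridoma, that is, a fusion of a B cell and a myeloma cell that grows in culture and secretes antibody. They were grown in the same medium with 10% fetal calf serum. L25 and L27 switch class at low frequency in culture, and H23 and H27 switch spontaneously at high frequency, and the total RNA of each subclone was put on 1 array. Each subclone is a single clone of cells, and the labels do not say whether the subclones of a class arose separately. The p-values therefore measure only the spread between these 4 subclones, and differences between clones and between switching classes cannot be told apart.

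Class switching exchanges the constant region of the heavy chain by joining breaks made in switch regions, which lie ahead of the constant region genes. A break is bound by the complex of MRE11, RAD50 and NBN, which activates the kinase ATM. ATM phosphorylates the histone variant H2AX, MDC1 binds it and brings the ubiquitin ligase RNF8, and RNF168 then ubiquitinates histones so that 53BP1 can bind. With RIF1 and the shieldin complex, whose subunit REV7 is encoded by Mad2l2, 53BP1 limits resection of the ends and favours end joining, and B cells that lack 53BP1 switch poorly.

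In high switching subclones Nbn, H2ax and Rnf168 were lower, by 1.93, 1.80 and 1.60-fold, and they were the only members past the threshold (limma, adjusted p under 0.05 over all probe sets). Of the 21 member probe sets 3 fell and 0 rose, where 2.10% of all probe sets fell and 1.50% rose (3.59% in all). With 1 probe set for each gene, the brightest, 3 of 10 genes fell, where 2.78% of 18193 genes fell and 2.04% rose. These sets differ in brightness, as 0 of the 10 genes lay below the array median on all 4 arrays, against 6273 of the 18193. The members were also chosen with earlier results of these data known, so the shares are a description and not a test. The 4 Rif1 probe sets all read lower and the 2 brighter Trp53bp1 probe sets read higher in both high switching subclones, without passing the threshold. Of all probe sets, 22.2% read lower and 25.1% higher in both. Rad50, Atm, Mdc1, Rnf8 and Mad2l2 overlapped between the classes. Nbn and H2ax were called lower with the level of chromosomal neighbours subtracted, and Rnf168 was not. When any single array was left out, 0 of 21 member probe sets passed, where 0.684% of all probe sets passed without L25, 1.09% without L27, 1.11% without H23 and 1.29% without H27.

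RefSeq promoter sequences of assembly GRCm38.p6 matched 6 of the 10 members by symbol, Atm, Mdc1, Rnf8, Rnf168, Trp53bp1 and Mad2l2, the last with 2 start sites. Below are the 250 bases before the annotated start of Rnf168, the called member with a sequence, and of Trp53bp1, its downstream partner, whose transcript read in the opposite direction. Capitals mark a match to an ETS factor word (CCGGAAGT, either strand), found 15 bases before the start of Rnf168 and in 2.88% of 32851 promoters. The Trp53bp1 window held no match to any word searched and is in lower case throughout.
Rnf168 (chr16:32277211-32277460, plus strand): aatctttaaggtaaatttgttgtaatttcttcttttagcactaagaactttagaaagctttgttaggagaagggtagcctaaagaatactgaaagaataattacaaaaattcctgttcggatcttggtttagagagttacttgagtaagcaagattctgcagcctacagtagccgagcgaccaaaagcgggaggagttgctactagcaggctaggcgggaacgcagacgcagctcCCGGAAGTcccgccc
Trp53bp1 (chr2:121271408-121271657, minus strand): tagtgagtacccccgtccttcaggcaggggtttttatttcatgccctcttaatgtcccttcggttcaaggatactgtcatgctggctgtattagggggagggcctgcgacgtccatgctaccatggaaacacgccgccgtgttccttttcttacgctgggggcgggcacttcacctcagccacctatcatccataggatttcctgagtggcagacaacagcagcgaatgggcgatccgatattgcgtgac
G and C made up 43.6% of the Rnf168 window and 54.4% of the Trp53bp1 window, against a median of 52.4% over all promoters. The other words searched on both strands were the CCAAT box (CCAAT) and 4 E2F words (TTTCCCGC, TTTGGCGC, TTTGCCGC and TTTCGCGC). CCAAT was found in 4 of the 7 member windows (Atm, Mdc1, Rnf8 and 1 start of Mad2l2) and in 33.8% of all promoters. An E2F word was found in Mdc1 alone among the 7 windows (1.86% of all promoters). A match describes letters and is not evidence of binding.

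Total RNA was measured in bulk, so fewer cells that express a gene and less RNA per cell cannot be told apart. The log2 intensity of the median probe set was 5.25 on the dimmest and 5.30 on the brightest array, and precision is limited by there being 4 arrays. Of 8 plasma cell markers measured, all lay above that level on every array. Among them were Jchain (14.42 in low and 14.46 in high switching subclones) and Sdc1, the surface marker CD138 (12.46 and 12.57). Xbp1 (-0.71) and Tnfrsf17 (-0.71) fell (limma adjusted p = 0.0461 and 0.0455), where 2.78% of all genes fell. Prdm1 read higher in both high switching subclones (0.74) without passing (limma adjusted p = 0.119). Of the 8 differences 5 were positive and 3 negative, with a median of 0.03. Of 6 B cell markers, Ms4a1 (CD20) was bright in both classes (11.52 in low and 11.45 in high switching subclones), as was Cd79b, which rose by 0.77 (11.06 and 11.82). Cd22, Cr2 and Cd79a lay below the median on all arrays, and Pax5 on 2 of them. T cell markers were called in 0 of 6 genes (1 at an unadjusted p under 0.05 by limma) and read between 5.61 and 7.38 in the mean of the 4 arrays. Of 6 myeloid markers Itgam fell (-1.38), and the others had means from 4.51 to 6.54. No batch is given for the arrays, but the hybridization controls, RNAs added in known amounts, read 10.94 on L25 and 10.85 on H27 and 10.30 on L27 and 10.37 on H23, which crosses the classes.

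**Figure D1:**
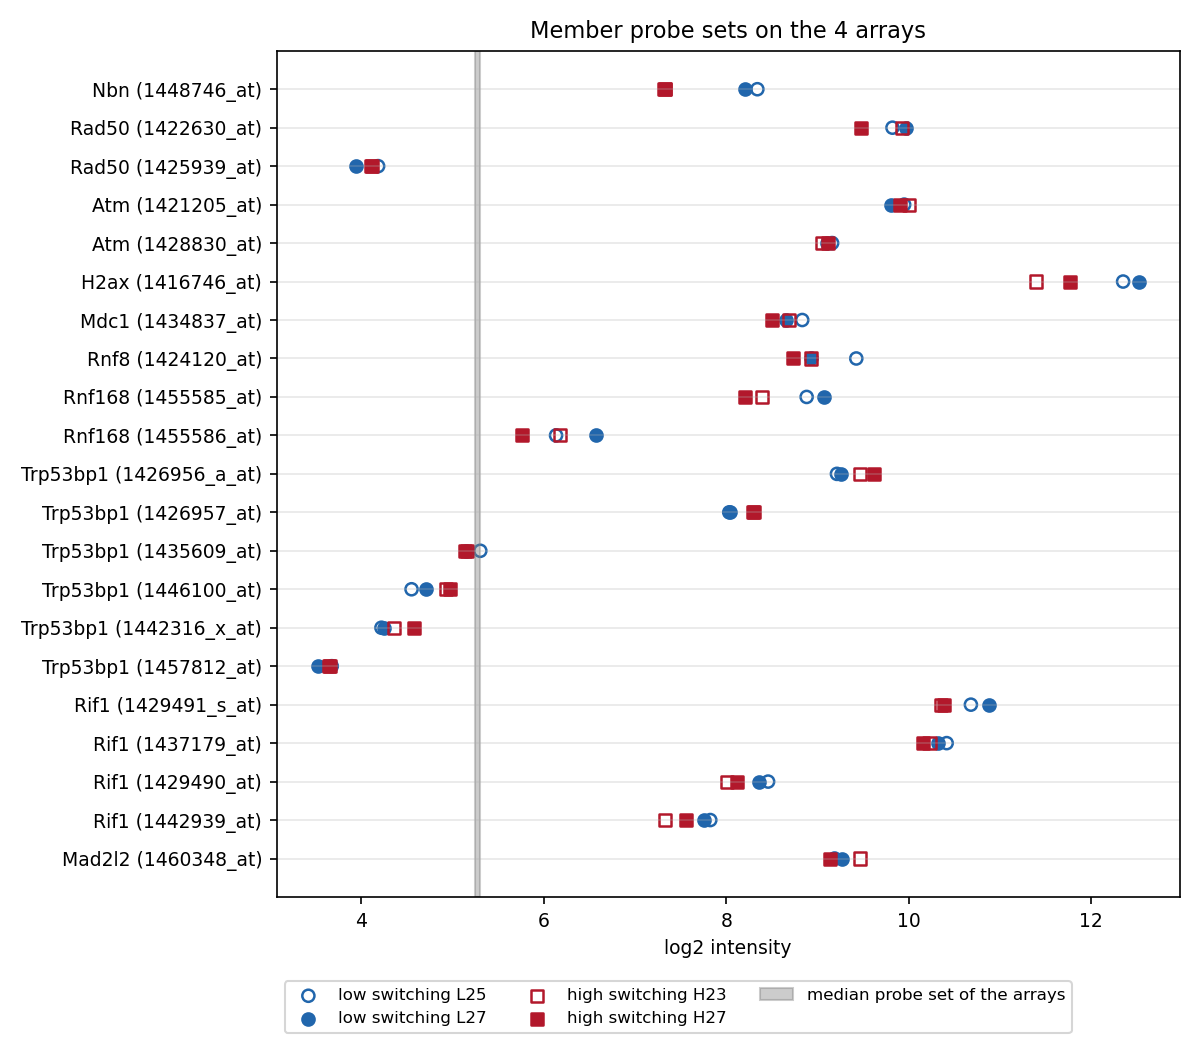
Log2 intensity (horizontal axis) of the 21 member probe sets on the 4 arrays, with circles for the low and squares for the high switching subclones and a grey band at the median probe set of the arrays. The squares of Nbn, H2ax and the brighter Rnf168 probe set lie left of both circles by at least 0.49, and 4 probe sets, 1 of Rad50 and 3 of Trp53bp1, lie left of the band on all arrays.

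Nbn encodes NBS1, the subunit that brings the break-binding complex to chromatin and recruits ATM. Its single probe set read 8.34 and 8.21 in L25 and L27 and 7.32 and 7.33 in H23 and H27 (log2 intensity). The high switching subclones differed from each other by 0.01 and lay 0.88 below the nearer low switching subclone. The difference was -0.95 ± 0.11 (log2, SE; 95% interval -1.22 to -0.68; limma adjusted p = 0.0151), so that the high switching level was 51.8% of the low switching level. Among arrays with brighter hybridization controls the difference was -1.01 and among those with dimmer controls -0.89; with that level as a block, where 0.338% of all probe sets passed, the limma adjusted p was 0.0881. The adjusted p was between 0.053 and 0.0894 when single arrays were left out, with differences from -1.01 to -0.88.

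Neither Rad50 nor Mre11a, the other subunits of this complex, passed the threshold on any probe set before subtraction of neighbours. Rad50, the coiled-coil ATPase that tethers the ends, read 9.82 and 9.97 in low and 9.93 and 9.48 in high switching subclones on its brighter probe set. H27 was the lowest and H23 lay between the low switching subclones, so the classes overlapped. The difference was -0.19 with a 95% interval from -0.61 to 0.22, and became 0.03 without H27. A second Rad50 probe set had a mean of 4.09, below the median of every array, and differed by 0.05. Mre11a, the nuclease of the complex, has 2 probe sets. The brighter read 9.99 and 9.99 in low and 10.34 and 10.33 in high switching subclones. Both high switching subclones lay above both low switching subclones, with a difference of 0.35 ± 0.10 (SE) that did not pass over all probe sets (limma adjusted p = 0.145). The dimmer read 6.58 and 6.54 in low and 6.46 and 6.59 in high switching subclones, where the classes overlapped, and differed by -0.04. The 39 genes near Mre11a on chromosome 9 had a median difference of 0.47. With them subtracted, the brighter probe set differed by -0.16 (limma adjusted p = 0.437) and the dimmer by -0.54. The dimmer passed as lower only after this subtraction (limma adjusted p = 0.0483), where 4.56% of 34715 probe sets passed in either direction.

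Atm encodes the kinase that phosphorylates H2AX, MDC1 and 53BP1 at breaks. Its brighter probe set read 9.95 and 9.80 in low and 10.01 and 9.90 in high switching subclones. The classes overlapped, with a difference of 0.08 and a 95% interval from -0.20 to 0.36. The second probe set differed by -0.05, with an interval from -0.31 to 0.21. Both intervals exclude a change of the size seen for Nbn, in either direction.

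H2ax encodes the histone variant whose phosphorylated form marks chromatin around breaks. It was the brightest member, above 97.6% of all probe sets in its mean, and read 12.35 and 12.52 in L25 and L27 and 11.39 and 11.77 in H23 and H27. Both high switching subclones were lower by at least 0.58, and they differed from each other by 0.38. The difference was -0.85 ± 0.16 (SE; 95% interval -1.24 to -0.47; limma adjusted p = 0.0466), with the high switching level at 55.4% of the low switching level. It was -0.58 among arrays with brighter hybridization controls and -1.13 among those with dimmer controls, and with that level as a block the limma adjusted p was 0.143. Without single arrays it ranged from -1.04 to -0.66 (limma adjusted p from 0.0508 to 0.17).

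H2ax is also among the histone genes that cells express while they replicate DNA, so proliferation markers are given beside it. Of 11 markers measured, limma called 0 over all probe sets; at an unadjusted p under 0.05, 3 were lower (Pcna, Mcm6 and Mcm7) and 1 higher (Ccna2), where 12.1% of all genes were lower and 10.8% higher by that measure. Their median difference was -0.26, against 0.01 over all genes, and it was -0.36 without H23 and -0.14 without H27. The markers are brighter than that background, with means from 11.11 to 13.13, where the median over all genes was 6.44. Between the high switching subclones the markers had a median of -0.37 in H27 against H23, where H2ax was 0.38 higher in H27. The part of proliferation in the fall of H2ax was not tested.

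Mdc1 and Rnf8, which carry the signal from phosphorylated H2AX to histone ubiquitination, did not pass. Mdc1, the scaffold, read 8.83 and 8.66 in low and 8.68 and 8.50 in high switching subclones, with a difference of -0.15 and a 95% interval from -0.46 to 0.16. H23 lay between the low switching subclones. Rnf8 read 9.43 and 8.93 in low and 8.93 and 8.74 in high switching subclones. The low switching subclones differed from each other by more than the class difference of -0.34 (95% interval -0.79 to 0.11). Without L25 the Rnf8 difference was -0.09 and without L27 it was -0.59.

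Rnf168 encodes the ligase that ubiquitinates histone H2A at the site that 53BP1 reads. Its brighter probe set read 8.88 and 9.07 in L25 and L27 and 8.39 and 8.20 in H23 and H27. Both high switching subclones were lower by at least 0.49, with a difference of -0.68 ± 0.13 (SE; 95% interval -0.99 to -0.36) and a limma adjusted p of 0.0494, close to the threshold. It was -0.68 among arrays with brighter hybridization controls and -0.67 among those with dimmer controls, and with that level as a block the limma adjusted p was 0.103. The call also ended with a variance trend (0.0594; 0.0549 with robust estimation), with 16 added to the intensity (0.0573) and without any single array (0.097 to 0.18). The second probe set read 6.13 and 6.57 in low and 6.18 and 5.77 in high switching subclones, where the classes overlapped, and its difference was -0.38 (95% interval -0.87 to 0.11).

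**Figure D2:**
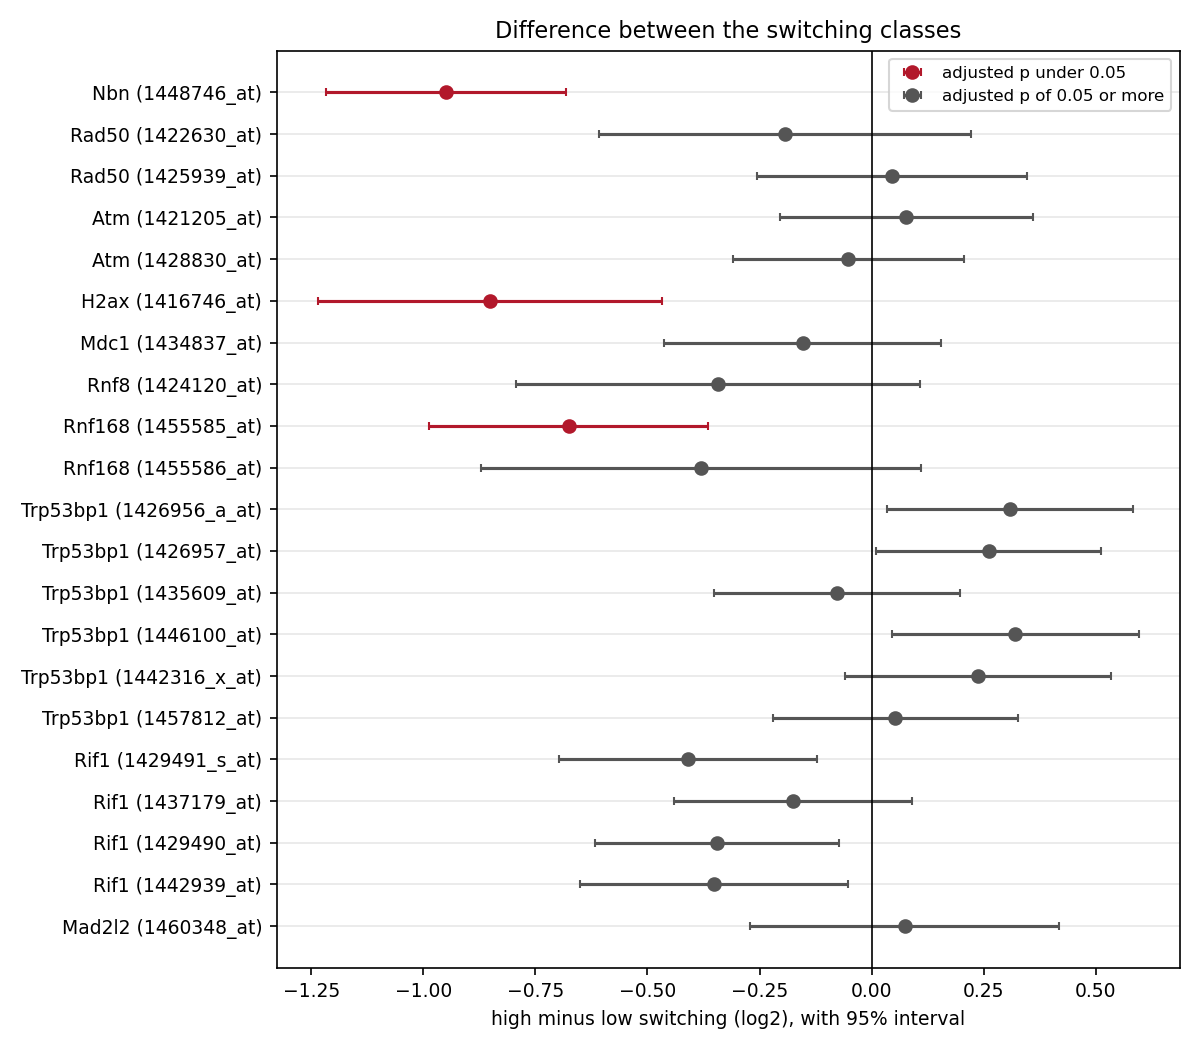
High minus low switching difference (log2, horizontal axis) of each member probe set with its 95% interval from limma; red marks an adjusted p under 0.05 over all probe sets. The red intervals of Nbn (-1.22 to -0.68), H2ax (-1.24 to -0.47) and the brighter Rnf168 probe set (-0.99 to -0.36) exclude 0, as do 3 intervals each of Trp53bp1 and Rif1, which did not pass after adjustment.

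Trp53bp1 encodes 53BP1, the reader of ubiquitinated and methylated histones that protects ends from resection. Its brightest probe set read 9.21 and 9.26 in low and 9.47 and 9.62 in high switching subclones. The next read 8.03 and 8.04 in low and 8.29 and 8.31 in high switching subclones. On both, each high switching subclone was above each low switching subclone, with differences of 0.31 ± 0.11 and 0.26 ± 0.10 (SE; limma adjusted p = 0.216 and 0.251; unadjusted p by limma of 0.0333 and 0.044). The 95% intervals ran from 0.03 to 0.58 and from 0.01 to 0.51. Of all probe sets, 8.96% had an unadjusted p under 0.05 in this direction by limma. On 25.1% both high switching arrays lay above both low switching arrays. The other 4 probe sets had means between 3.63 and 5.19, near or below the median of the arrays, and differed by -0.08 to 0.32. Intensity there need not track the amount of transcript.

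Rif1, which binds phosphorylated 53BP1 and blocks resection, has 4 probe sets, all above the median on every array. The brightest read 10.68 and 10.88 in low and 10.35 and 10.39 in high switching subclones. On all 4 probe sets both high switching subclones were below both low switching subclones, as on 22.2% of all probe sets. The Rif1 differences were -0.41, -0.35, -0.35 and -0.17. None passed (limma adjusted p from 0.135 to 0.481), and 3 of 4 had an unadjusted p under 0.05, where 9.67% of all probe sets did in this direction. The probe sets share the same RNA, so they are not separate replicates. Rif1 and Trp53bp1 thus had differences of opposite sign, and both lie on chromosome 2.

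Mad2l2 encodes REV7, a subunit of shieldin that also serves the translesion polymerase zeta. It read 9.19 and 9.27 in low and 9.47 and 9.14 in high switching subclones. The high switching subclones lay on either side of the low switching pair, and the difference was 0.07 with a 95% interval from -0.27 to 0.42.

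Over all 21 probe sets, both high switching arrays lay below both low switching arrays for 7 and above them for 4, and the classes overlapped for 10. Among all probe sets 22.2% lay below and 25.1% above, 47.3% in all, so a lack of overlap was about as frequent among the members as on the whole array. Of the 21 differences 13 were negative and 8 positive, with a median of -0.15, against 21359 negative of 45037 and a median of 0.01 over all probe sets.

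Neighbouring genes on a chromosome can differ together between clones, so each member was set beside the 20 expressed genes on either side of it in the gene order of GRCm38.p6. The 40 neighbours of Rnf168 on chromosome 16 had a median difference of -0.32, and 5 of them fell. With the neighbours subtracted, Rnf168 differed by -0.37 ± 0.13 (SE; limma adjusted p = 0.122). The neighbours of Nbn on chromosome 4 had a median of -0.18 and 1 of 40 fell, and Nbn differed by -0.76 ± 0.14 after subtraction (limma adjusted p = 0.0252). The neighbours of H2ax on chromosome 9 had a median of 0.11, with 3 rising and 0 falling, and H2ax differed by -0.90 ± 0.14 (limma adjusted p = 0.0111). Rif1 went from -0.41 to -0.27, Mdc1 from -0.15 to 0.08 and Trp53bp1 from 0.31 to 0.32, and none of these passed. After subtraction 4.56% of probe sets passed in either direction.

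**Figure D3:**
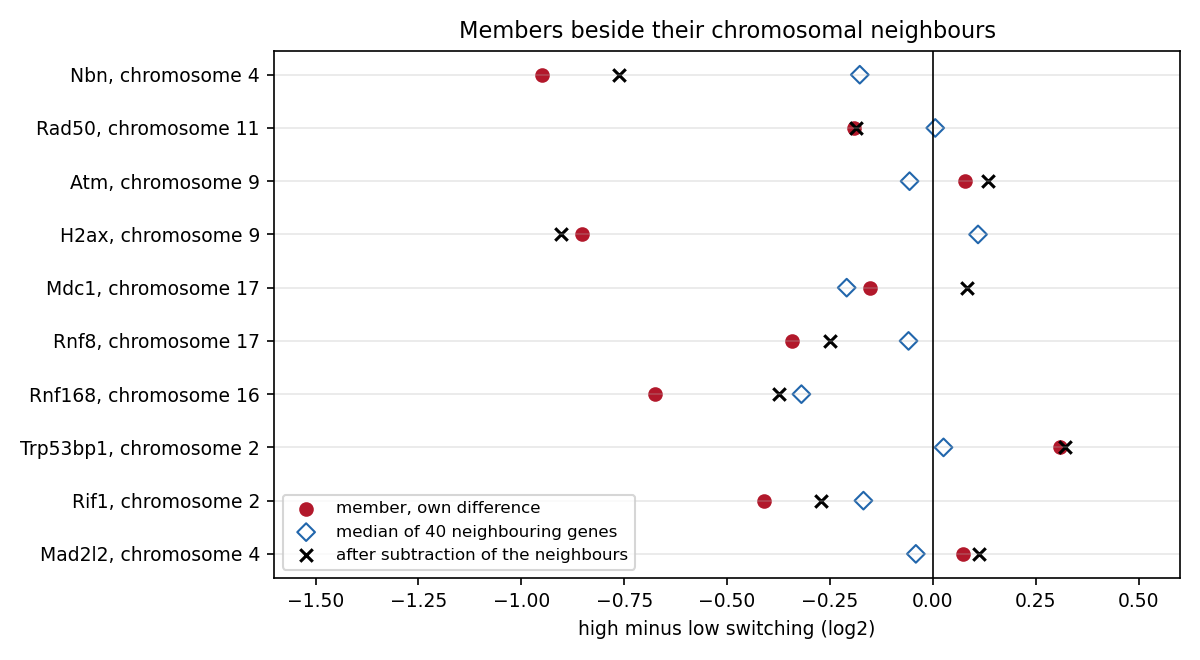
High minus low switching difference (log2, horizontal axis) of the brightest probe set of each member, of its 40 chromosomal neighbours (median) and of the member after subtraction of its neighbours. The neighbours of Rnf168 lie at -0.32, those of Nbn at -0.18 and those of H2ax at 0.11, while the subtracted values are -0.37, -0.76 and -0.90.

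Other genes of the pathway were taken as a list of 66 genes in 5 groups by role, of which 60 were measured. Of these 2 fell and 1 rose, where 4.82% of all genes passed in either direction. A negative difference was seen in 45 of 60, against 8751 of 18193 over all genes (median -0.11 against 0.01). The list is brighter than that background, as 2 of 60 lay below the array median on all 4 arrays, against 6273 of 18193. Its median difference was -0.16 without H23 and -0.06 without H27. The sensors and kinases had 1 of 13 past the threshold: Chek2, the checkpoint kinase activated by ATM, read 9.34 and 9.41 in low and 8.78 and 8.58 in high switching subclones (-0.69 ± 0.12, SE; limma adjusted p = 0.0398). Its neighbours on chromosome 5 had a median of -0.17 and 6 of 40 fell, and with them subtracted Chek2 differed by -0.46 and did not pass (limma adjusted p = 0.0749). Of the enzymes and readers that modify chromatin at breaks 0 of 14 passed, and of those that oppose this ubiquitination 0 of 10. Among the latter was Rnf169, which competes with 53BP1 for the same mark (-0.56, limma adjusted p = 0.261). Its high switching subclones differed from each other by 0.58. Of the group of the BRCA1-A complex, which limits resection at ubiquitinated chromatin, 0 of 8 passed, counting Brip1, which is not part of it. In these last 3 groups 4, 3 and 1 genes had an unadjusted p under 0.05 by limma. Of the 4, 2 were lower and 2 higher, and the 3 and 1 were all lower. By that measure 12.1% of all genes were lower and 10.8% higher. Differences in the 3 groups ran from -0.42 to 0.61, from -0.56 to 0.22 and from -0.53 to 0.27.

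The partners and regulators of 53BP1 had 1 of 15 genes lower and 1 higher, where 2.78% of all genes were lower and 2.04% higher. Their median difference was -0.16. Before adjustment, limma gave a p under 0.05 to 5 lower genes and 1 higher gene of the 15. Of all genes 12.1% and 10.8% did so. The same count for the sensors and kinases was 3 lower and 3 higher of 13. Nudt16l1 (TIRR), which covers the histone-binding surface of 53BP1 and holds it off chromatin, read 9.26 and 9.25 in low and 8.71 and 8.54 in high switching subclones. Both high switching subclones were lower, and both of its probe sets passed (-0.63 ± 0.11 and -0.72 ± 0.12, SE; limma adjusted p = 0.0447 and 0.0332). It lies on chromosome 16, as does Rnf168, among neighbours with a median of -0.34, and with them subtracted its adjusted p was 0.159 and 0.0988 by limma. Stn1, of the CST complex that fills in ends with polymerase alpha, rose by 0.88 ± 0.13 (SE; limma adjusted p = 0.0278), but its means of 4.63 and 5.51 lay near the median probe set, so the size is approximate. Its other probe sets, 0.25 and 0.15, did not pass, and its neighbours on chromosome 19 had a median of 0.48. With them subtracted it differed by 0.42 (limma adjusted p = 0.15).

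Paxip1 (PTIP), which binds phosphorylated 53BP1, was below the low switching arrays in both high switching subclones on 4 of 4 probe sets. Of all probe sets 22.2% lay below in this way. The 4 probe sets share the same RNA, so they are not separate replicates. The brightest Paxip1 probe set read 10.59 and 10.15 in low and 10.05 and 9.83 in high switching subclones. The differences ran from -0.51 to -0.35 and none passed (limma adjusted p from 0.16 to 0.259), and its neighbours on chromosome 5 had a median of -0.33. The shieldin genes Shld1 and Shld2 differed by -0.12 and -0.01 on their brightest probe sets, and Shld3 was not analysed here. The calls of Chek2 and Nudt16l1 ended without any single array, and that of Stn1 held without H27 and ended without each of the other arrays.

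**Figure D4:**
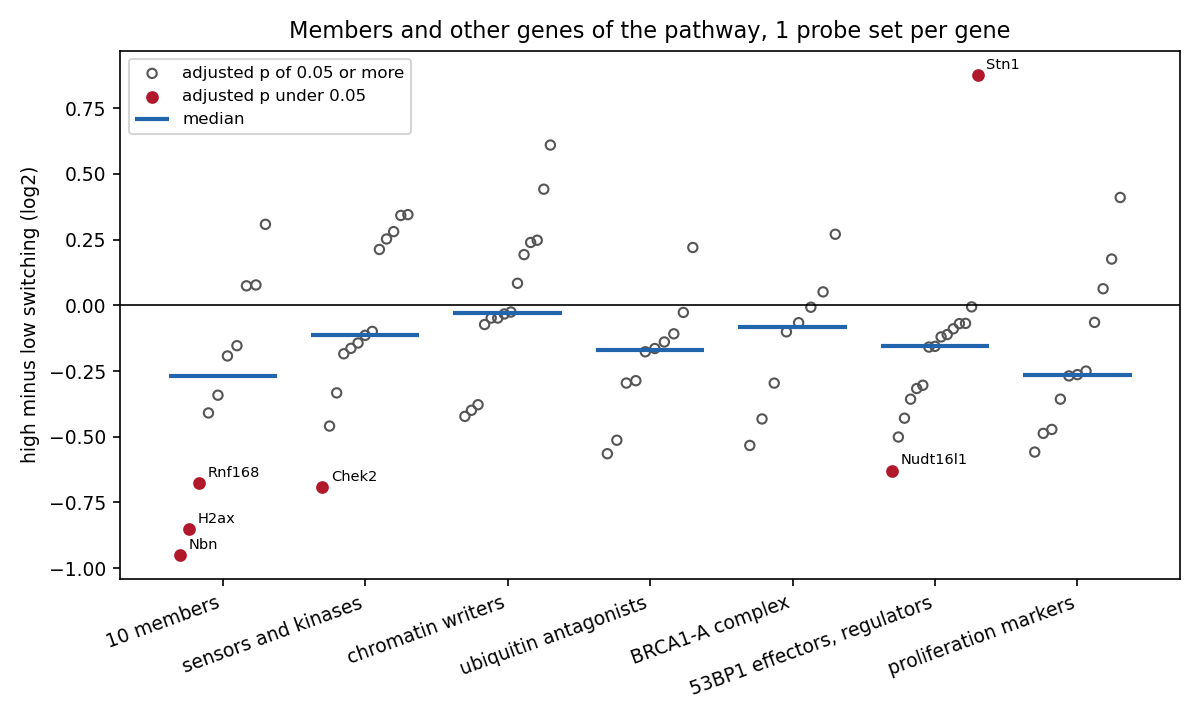
High minus low switching difference (log2, vertical axis) of the 10 members, the 5 groups of the pathway list and the proliferation markers, with 1 point for each gene on its brightest probe set and a bar at the median. The group labelled BRCA1-A complex includes Brip1, which is not part of it. Filled points passed an adjusted p under 0.05 and are named; the medians are -0.27 for the members, between -0.17 and -0.03 for the 5 groups and -0.26 for the proliferation markers.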

How the data were processed

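Biotin-labelled cRNA was made from total RNA of 4 subclones with GeneChip kits and measured on 1 expression array for each, per the labels. The authors deposited linear intensities, 1 for each probe set. The submitters' processing notes name RMA (background correction, normalization across arrays and a summary of the probes in a set), with no version. It can shrink differences of dim probe sets. The tests had been chosen for log2 values, so log2 of each intensity was taken.

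The 64 control probe sets among 45101 were set aside. The platform annotation gave 1 symbol for 34945 of the 45037 tested, several for 932 and none for 9160; 34741 matched a RefSeq gene table of GRCm38.p6, used for names and gene order. The sources used here name no build for the authors' annotation.

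High minus low switching was tested with limma 3.58.1 in R 4.3.3 (lmFit, then eBayes; two-sided). P-values were adjusted by Benjamini-Hochberg across all probe sets tested, and 0.05 was the threshold. Each SE is limma's moderated value and each interval covers 95%. With 2 arrays in each class, the smallest two-sided p of an exact permutation test is 0.333. In the lists each gene was represented by its brightest probe set. Neighbours were the 20 genes on each side with a mean of at least 7 (log2); their median on each array, after centring each gene, was subtracted before the fit. A simulation gave 200 of the 45037 probe sets a known difference in each of 5 draws. Of differences of 0.5 (log2) 0% were recovered, of 1 40.4%, of 2 96.8% and of 4 99.2%. A gene that did not pass can therefore still differ by 0.5 or less.

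All members were named whatever their value, as were Mre11a, Paxip1 and the shieldin genes; of the lists, genes past the threshold were named. Rnf169, Pcna, Mcm6, Mcm7, Ccna2, Jchain, Sdc1, Ms4a1, Cd22, Cr2, Cd79a and Pax5 are named beyond this rule, after their values were seen. So are Prdm1 and Brip1. The members and lists were chosen with earlier results of these data known. Alternatives were variance trends, a minimum mean of 6, other normalizations, 16 added to the intensity, the hybridization controls as a block, subtraction of neighbours, averaging a gene's probe sets, and leaving out each array. Plots were made in Python 3.11.15 (matplotlib 3.10.9).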

Additional observations from a re-analysis of the deposited data

How the results depend on the processing

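With 2 arrays for each class, calls near the threshold moved with single choices. Among the 8 alternatives that kept all 4 arrays, Nbn was called in 7, H2ax in 6 and the brighter Rnf168 probe set in 3. Most of the values counted next belong to the 18 member probe sets that were not called and had no call to lose. Of 247 values of member probe sets under alternatives, 219 kept their direction and side of the threshold, 20 kept the direction and lost the call, and 8 changed sign, all in probe sets that had not passed. The count of member probe sets that fell was 3, and was 1 (Nbn) with 16 added to the intensity and 0 with the hybridization control level as a block and without any single array. It was 2 with a variance trend (robust or not) and with neighbours subtracted. No member probe set rose under any alternative. The pathway list had 2 falling genes and 1 rising gene. It had 4 falling with a variance trend (robust or not) and with 16 added to the intensity, and 0 with the block and with neighbours subtracted. It had 0 rising with a minimum mean of 6, with 16 added, with the block and with neighbours subtracted. Without single arrays 0 fell in each case, and from 0 to 1 rose. Signs changed for the dimmer Atm probe set (0.0005 with quantile normalization applied again and 0.0034 with neighbours subtracted) and Mdc1 (0.082 with neighbours subtracted). Without single arrays, Rad50 ranged from -0.418 to 0.033 and, on its dimmer probe set, from -0.073 to 0.165. Of the dim Trp53bp1 probe sets, 1 ranged from -0.155 to 0.0001 and 1 from -0.023 to 0.13, and Mad2l2 ranged from -0.0902 to 0.239. The cause was not tested. Pairing by label was not possible because the labels give the arrays no replicate numbers that could pair them. The block above pairs arrays by the level of their hybridization controls only. Probe sets below the median of the arrays limit what can be said of 4 member probe sets, 3 of them of Trp53bp1.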
